A study of Mus musculus with 21 samples.

Results

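App, Psen2, Bace1, Adam10, Apoe, Clu, Bin1, Picalm and Sorl1 are 9 mouse genes taken from the amyloid pathway and from the risk genes of Alzheimer's disease. They were chosen by symbol, and all 9 were among the 19399 genes present in each of the 4 deposited tables. Primary cortical neurons had been prepared from newborn WT pups and from newborn hTau P301S pups, whose transgene is a mutant human tau cDNA driven by the prion promoter. The Tau neurons were seeded with pre-formed tau fibrils (PFF, 3 μg/mL) on day 7 and then cultured for 18 days, a step that the labels and methods give for transgenic neurons alone. The paper's results can be read as seeding of WT neurons too. If Tau neurons alone were seeded, genotype and seeding cannot be told apart. Cultures of both genotypes had received AraC (1 μM), an inhibitor of DNA synthesis that removes dividing glia, and were then treated for 24 h with 10 μM AdipoRon, an agonist of both adiponectin receptors, or with the vehicle DMSO. Polyadenylated RNA was sequenced from 5 Tau cultures with DMSO, 5 Tau cultures with AdipoRon, 5 WT cultures with DMSO and 6 WT cultures with AdipoRon. According to the paper's reporting summary, each drug treatment drew on the same animals, so DMSO and AdipoRon cultures need not come from separate pups.

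Amyloid precursor protein (App) is cleaved first by either of a pair of competing proteases. β-secretase (Bace1) opens the route to amyloid-β, and α-secretase (Adam10) cuts within the amyloid-β sequence and closes that route. γ-secretase, whose catalytic subunit is a presenilin such as Psen2, makes the final cut. Sorl1 encodes a sorting receptor that holds App away from the compartments where β-secretase acts. Bin1 and Picalm encode proteins of membrane curvature and clathrin-mediated endocytosis. Apoe and Clu encode secreted apolipoproteins that in brain come mainly from glia.

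The values are the authors' means of expression, given as log2 CPM (counts scaled to a common library size). Each table holds a single such mean per gene, taken over the cultures of both groups that the table compares. The 4 means are therefore pooled levels of all DMSO cultures, all AdipoRon cultures, all Tau cultures and all WT cultures. Single cultures were not analysed here. No mean below therefore has an SD, and no difference between pools was tested here. Whether a difference is larger than the spread between cultures cannot be read from the pooled means. The paper gives only an approximate number of reads per sample, so the depth of each culture is unknown as well. The pools overlap, since each culture is in 1 treatment pool and 1 genotype pool. The tables may have been normalised separately. Differences between pools were therefore centred on their median over all genes. Before centring, this median was 0.03 (log2) for AdipoRon minus DMSO and -8.1e-04 for Tau minus WT. Over the 9424 genes with a log2 CPM over 4 in every table, the treatment pools and the genotype pools, weighted by 10 and 11 cultures, summed to the same level with an SD of 0.0036 (log2), against 0.0063 when the pools were weighted equally.

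The 9 genes covered a wide range of levels, and their order held in every pool. Per kilobase of canonical transcript in the DMSO pool, Apoe had the highest level at 961 CPM per kb. Clu followed at 526 CPM per kb and App at 161 CPM per kb. Sorl1, with a canonical transcript of 10.7 kb, stood at 68.9 CPM per kb. Bin1 (26.5 CPM per kb), Adam10 (24.0 CPM per kb), Picalm (17.1 CPM per kb) and Psen2 (13.7 CPM per kb) lay close together, and Bace1 was lowest at 4.40 CPM per kb. Apoe, Clu, App and Sorl1 were within the top 10% of genes per kb, and Bace1 was at percentile 42.4. The substrate App was thus far more abundant at the RNA level than any of the 3 protease genes that act on its protein. Without values per culture, it is not known which neighbours in this order differ beyond their spread.

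**Figure D1:**
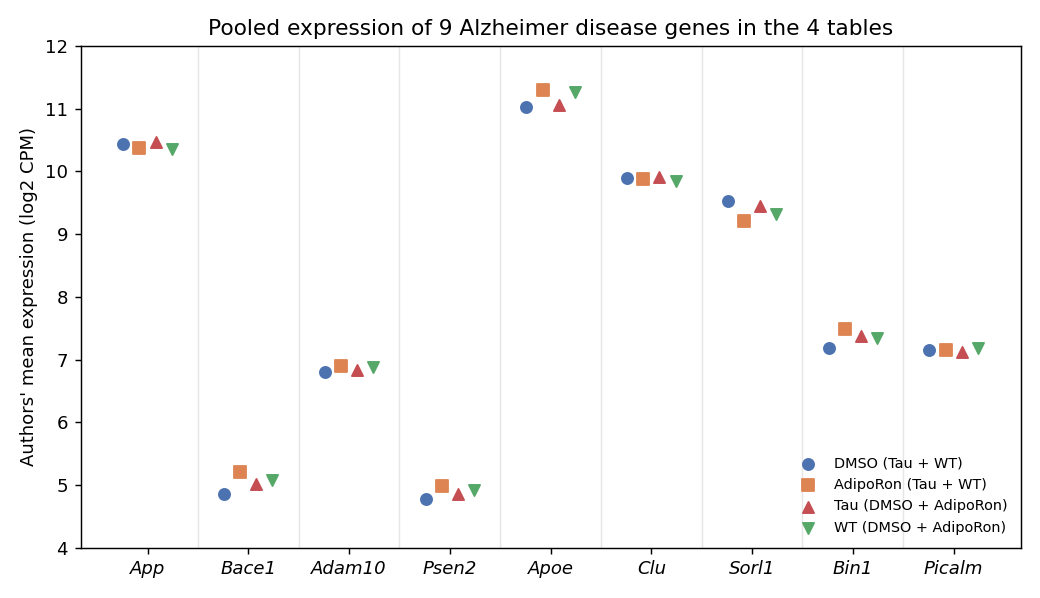
Authors' mean expression (log2 CPM) of the 9 genes in each of the 4 pools of cultures; each point is 1 pooled value without an error. Points of one gene lie within 0.35 (log2) of each other for every gene, while genes range from 4.77 (Psen2 with DMSO) to 11.3 (Apoe with AdipoRon).

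The comparison of AdipoRon with DMSO describes how the levels of these genes differed between the treatments, with both genotypes pooled. Bace1, Bin1 and Sorl1 differed by at least 1.2-fold between the pools, with Bace1 and Bin1 higher and Sorl1 lower with AdipoRon. Such differences were common, since 28.3% of all genes were past 1.2-fold in one direction or the other, and 3 of 9 is near that share. The median difference of the 9 genes was 0.07 (log2), beside 0 over all genes by construction, and 5 were higher and 4 lower. The AdipoRon pool held a larger share of WT cultures (54.5%) than the DMSO pool (50.0%).

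App, the substrate, had a pooled level of 1383 CPM with DMSO and 1332 CPM with AdipoRon. Its centred difference was -0.08 (log2), within the interquartile range of all genes, which ran from -0.15 to 0.14.

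Bace1 (chr9:45838545-45862484 in GRCm38) had 28.9 CPM with DMSO and 36.8 CPM with AdipoRon, a centred difference of 0.32 (log2) or 24.9%. It had the largest positive difference among the 9 and lay at percentile 90.6 of all genes. Adam10 had 111.5 CPM with DMSO and 119.5 CPM with AdipoRon, a difference of 0.07 that lay within the interquartile range of all genes. Psen2 had 27.3 CPM with DMSO and 31.8 CPM with AdipoRon, a difference of 0.19 or 14.4%, under 1.2-fold. All 3 protease genes were higher in the AdipoRon pool, as were 9699 of all 19399 genes after centring. Of the 3, Bace1 alone was past 1.2-fold.

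Apoe had 2097 CPM with DMSO and 2519 CPM with AdipoRon, a centred difference of 0.24 (log2) or 18.0%. It was the largest difference in absolute level among the 9 genes, although it stayed under 1.2-fold after centring and reached it without centring (0.27). Clu, the other apolipoprotein gene, had 956 CPM with DMSO and 937 CPM with AdipoRon, a difference of -0.05. The difference of Clu lay within the interquartile range of all genes, so of these apolipoprotein genes only Apoe lay beyond it.

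Sorl1 (chr9:41964709-42124297 in GRCm38) had 740 CPM with DMSO and 595 CPM with AdipoRon, a centred difference of -0.34 (log2) or -21.1%. It had the lowest difference of the 9 genes, at percentile 11.5 of all genes. Bin1 had 146 CPM with DMSO and 180 CPM with AdipoRon, a difference of 0.27 or 20.8%, just past 1.2-fold. Without genes with a log2 CPM under 0 in any table, which moves the median, Bin1 had 0.26 and fell just short. Picalm had 142 CPM with DMSO and 143 CPM with AdipoRon, a difference of -0.02 after centring and 0.0041 before it. The sorting and endocytic genes thus differed from each other, with the sorting receptor lower, the clathrin adaptor near 0 and the membrane-curvature gene higher.

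**Figure D2:**
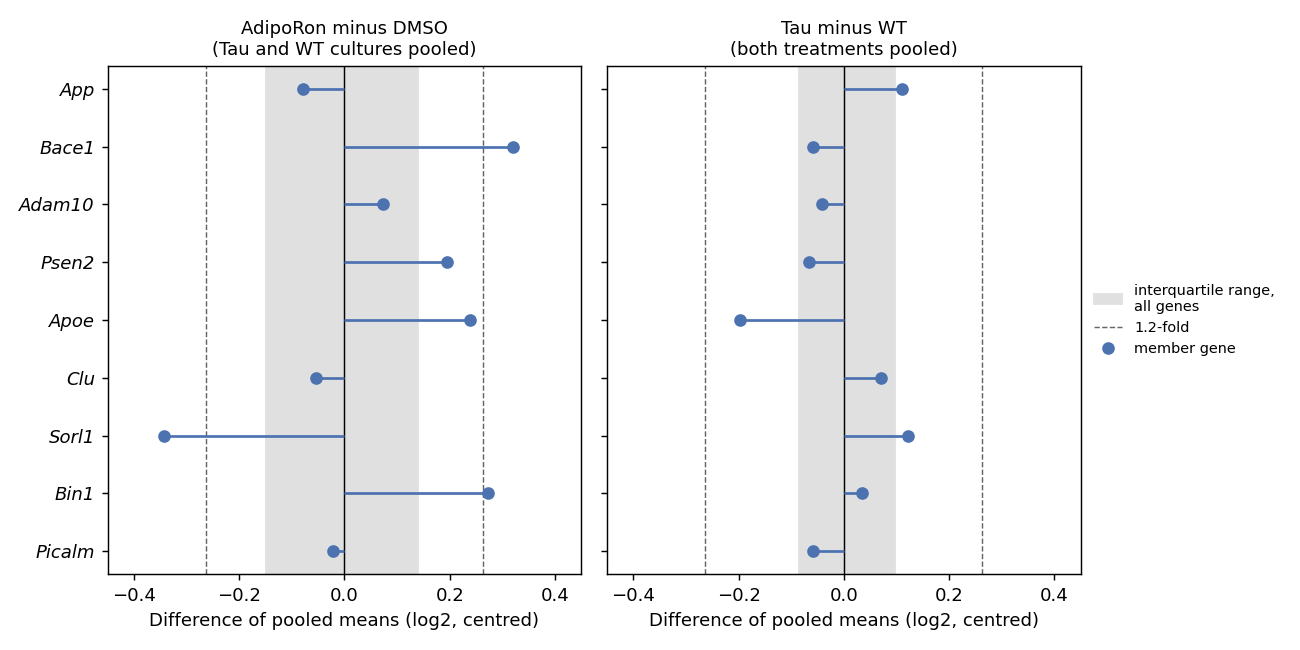
Differences of pooled means (log2, centred on the median of all genes) for AdipoRon minus DMSO on the left and Tau minus WT on the right. Points are single values without an error, the grey band is the interquartile range of all 19399 genes and dashed lines mark 1.2-fold; Bace1, Bin1 and Sorl1 are past 1.2-fold on the left and no gene is on the right.

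The comparison of Tau with WT neurons describes how the same genes differed between the genotypes, along with any difference in seeding, with both treatments pooled. The WT pool held 6 cultures with AdipoRon and 5 with DMSO, and the Tau pool held 5 of each. None of the 9 was past 1.2-fold between the genotype pools, where 19.1% of all genes were. Apoe differed most, with 2144 CPM in Tau and 2461 CPM in WT neurons, a centred difference of -0.20 (log2) or -12.8%, at percentile 11.7 of all genes. Sorl1 had 696 CPM in Tau and 639 CPM in WT neurons, a difference of 0.12. App had 1411 CPM in Tau and 1308 CPM in WT neurons, a difference of 0.11. These were the only members outside the interquartile range of all genes, which ran from -0.09 to 0.10.

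The proteases hardly differed between genotypes, and all 3 were slightly lower in Tau neurons. Bace1 had 32.4 CPM in Tau and 33.8 CPM in WT neurons (-0.06, log2), Psen2 28.8 CPM and 30.2 CPM (-0.07), and Adam10 113.8 CPM and 117.2 CPM (-0.04). Clu had 967 CPM in Tau and 921 CPM in WT neurons (0.07). Bin1 had 166 CPM in Tau and 162 CPM in WT neurons (0.04), and Picalm 139 CPM and 145 CPM (-0.06). Apoe and Sorl1 were the members outside the interquartile range of all genes in both comparisons, as were 30.0% of all genes, so 2 of 9 (22.2%) is no more than the share over all genes. Apoe was higher with AdipoRon and lower in Tau neurons, and Sorl1 was lower with AdipoRon and higher in Tau neurons. How the response to AdipoRon differed between Tau and WT neurons cannot be read from 4 pooled means.

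The pools do give the distance of treated Tau neurons from untreated WT neurons. The DMSO and Tau pools share the 5 Tau cultures with DMSO, so the difference of their sums is the difference between 5 Tau cultures with AdipoRon and 5 WT cultures with DMSO. This calculation was chosen after the values had been seen, and it takes each culture as counting equally in its pool. Unlike the differences above, the values of this comparison were not centred. As a share of the DMSO pool's mean, Bin1 was 27.2% higher in AdipoRon-treated Tau than in DMSO-treated WT neurons. Bace1 was higher by 23.8%, and Psen2 by 11.3%. Sorl1 had a value of -12.1%, or -89.5 CPM. Apoe was higher by only 4.50%, or 94.3 CPM, since its treatment and genotype differences had opposite signs. App (4.11%), Adam10 (4.11%), Clu (2.33%) and Picalm (-4.18%) were as near. The interquartile range of all genes ran from -9.81% to 13.3%, and Bin1, Bace1 and Sorl1 lay outside it.

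The cultures were checked against markers of the cells they could hold. Neuronal markers were high per kb, with Snap25, a SNARE protein of synaptic vesicle release, at 482 CPM per kb in the DMSO pool and 12 of 12 markers present. Astrocyte markers were about as high, led by Gfap, the astrocyte intermediate filament, at 578 CPM per kb, with S100b lowest at 13.0 CPM per kb, and the 9 markers summed to between 4771 and 5114 CPM in the 4 pools. The 12 neuronal markers summed to between 4524 and 5244 CPM. Microglia markers summed to between 377 and 718 CPM over 10 genes, and oligodendrocyte lineage markers to between 1066 and 1371 CPM over 8 genes. Vascular and fibroblast markers were scarce at 88.5 to 98.1 CPM, with the collagen gene Col1a2 highest at 5.68 CPM per kb and the endothelial marker Pecam1 lowest at 0.50 CPM with DMSO, and 1 of the 9, Cldn5, was not in all 4 tables. RNA of astrocytes, oligodendrocyte lineage cells and microglia was therefore present beside that of neurons. In such bulk samples, fewer cells of a type and less RNA per cell cannot be told apart.

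Microglia and oligodendrocyte lineage markers were lower in Tau neurons, the direction of Apoe, whereas astrocyte markers were split. All 10 microglia markers were lower in Tau neurons, each past 1.2-fold, where 19.1% of all genes were past it in either direction. Their median difference was -0.96 (log2), and their sum was 377 CPM in Tau and 718 CPM in WT neurons. Cx3cr1, the fractalkine receptor, had -1.19, Aif1 had -1.41, the lowest of the list, and P2ry12, a purinergic receptor, had -0.42, the nearest to 0. The other 7, Csf1r, Tmem119, C1qa, C1qb, C1qc, Tyrobp and Cd68, lay between these, and C1qa, a complement subunit, was the most abundant of the list per kb (129 CPM per kb) and Aif1 the least (1.11 CPM per kb). Oligodendrocyte lineage markers were lower in 8 of 8, with 6 past 1.2-fold, a median of -0.49 and a lowest value of -1.64 for the transcription factor gene Sox10. The others past 1.2-fold were Cspg4, Pdgfra, Mag, Mbp and Olig2, from -0.79 (Cspg4) to -0.31 (Olig2), while Olig1, the most abundant per kb (316 CPM per kb), had -0.17 and Mog, the least (1.14 CPM per kb), was also under 1.2-fold. Of the astrocyte markers 5 were higher and 4 lower, with a median of 0.01 and 2 past 1.2-fold, S100b (-0.58) and Aqp4 (-0.28), while Slc1a2 was highest (0.12). Neuronal markers were higher in 10 of 12, with a median of 0.09 and the lowest value in Gad1 (-0.01). In its RNA sequencing, the paper names Gbp2b as the only gene that differed between Tau and WT neurons. It therefore reports no such difference for these markers. That comparison need not cover the same cultures as the genotype pools here, which hold both treatments. Whether the marker differences exceed the spread between cultures was not tested here. The part of the microglia markers in the Apoe difference was not tested.

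Between treatments, where 28.3% of all genes were past 1.2-fold in either direction, 7 of 10 microglia markers were higher with AdipoRon. Of these, 6 were past 1.2-fold, led by Cd68, a lysosomal protein of phagocytes (0.80, log2). The other 5 were C1qb (0.41), Tyrobp (0.41), Tmem119 (0.38), C1qc (0.37) and C1qa (0.26). All 10 microglia markers together summed to 487 CPM with DMSO and 625 CPM with AdipoRon, in the direction of Apoe. Cx3cr1 (-0.50) went the other way, past 1.2-fold, and P2ry12 (-0.25) and Csf1r (-0.15) were also lower. Astrocyte markers were higher in 5 of 9, and the 2 past 1.2-fold were Aldh1l1 (0.40) and Gfap (0.32), while Slc1a3 was lowest (-0.26), just under 1.2-fold. Neuronal markers were lower with AdipoRon in 11 of 12, with 6 past 1.2-fold and a median of -0.28, in the direction of Sorl1. The lowest was Neurod6, a transcription factor gene of excitatory neurons (-1.34) and the least abundant of the list per kb (3.29 CPM per kb), followed by Nefl (-0.41), Nefm (-0.37), Snap25 (-0.32), Gad1 (-0.31) and Syt1 (-0.30), and Slc17a7, a vesicular glutamate transporter, was the exception (0.08). Oligodendrocyte lineage markers were lower in 7 of 8, with 4 past 1.2-fold and a median of -0.29. These 4 were Pdgfra (-0.60), Olig2 (-0.37), Mog (-0.36) and Olig1 (-0.33), and Mag was highest (0.01). The part of these cell type markers in the differences of Apoe and Sorl1 was not tested.

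**Figure D3:**
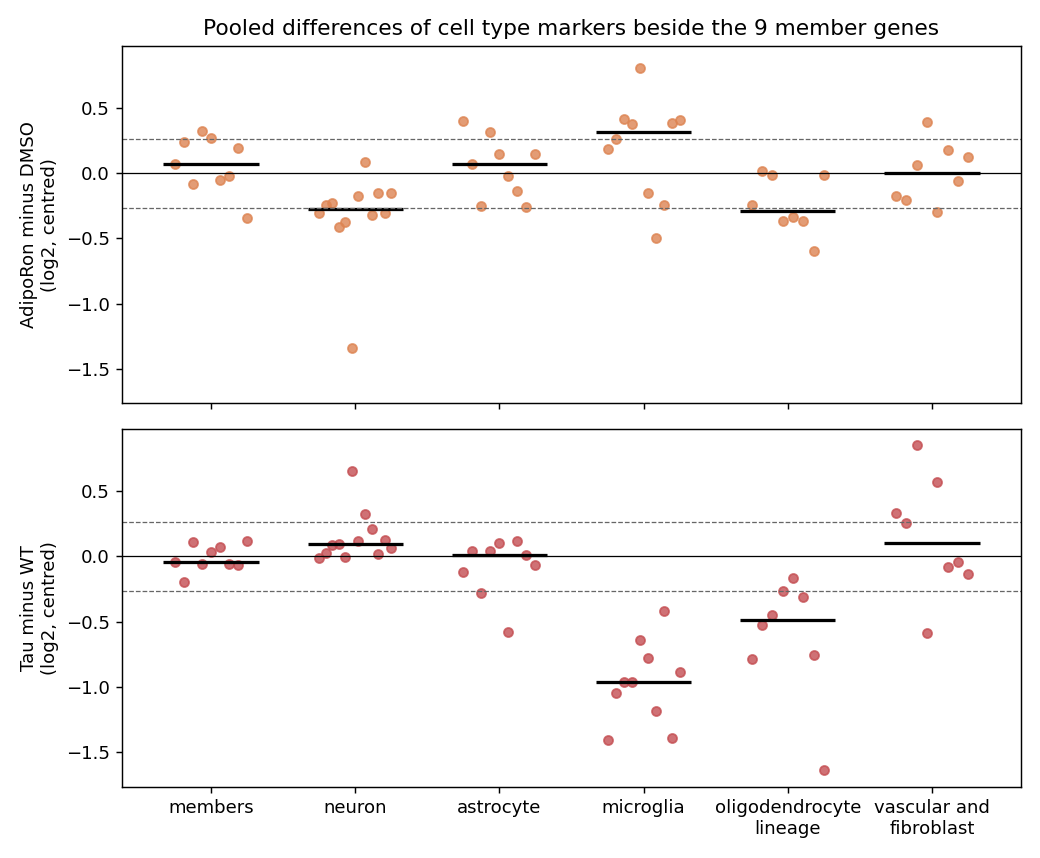
Differences of pooled means (log2, centred) for the 9 genes (members) and for 5 lists of cell type markers, AdipoRon minus DMSO above and Tau minus WT below. Each point is 1 gene, bars are medians and dashed lines mark 1.2-fold; in the lower panel all 10 microglia markers lie below the dashed line, with a median of -0.96.

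Among 13 other genes of the App family and its processing, 6 were higher and 7 lower with AdipoRon (median -0.05, log2). Beside 28.3% of all genes, 2 of the 13 were past 1.2-fold. Both encode subunits of γ-secretase, namely Aph1c (0.38) and Psenen (0.35), which were also among the scarce genes of the list at 2.19 and 8.37 CPM per kb. Of the other γ-secretase subunits, Aph1b had 0.16, Aph1a 0.05 and Ncstn, its substrate-docking subunit, -0.10, beside 0.19 for Psen2. The App-like genes Aplp1 (-0.06) and Aplp2 (-0.08) had values close to that of App. Bace2, the relative of Bace1, had -0.05 against 0.32. Adam17 (0.08) was close to Adam10, and Adam9 had -0.13. The lowest was Apbb1, an adaptor that binds the tail of App (-0.16), and the most abundant per kb was Itm2b (335 CPM per kb, 9.4e-04). Between genotypes, 9 of the 13 were lower in Tau neurons (median -0.07), and Apbb1 had the highest value (0.06). Psenen alone was past 1.2-fold (-0.29), where 19.1% of all genes were.

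Among 8 genes of amyloid clearance and lipoprotein handling, 4 were higher and 4 lower with AdipoRon (median -0.0014, log2). Beside 28.3% of all genes, 2 of the 8 were past 1.2-fold. These were Vldlr (-0.59), a receptor of ApoE-containing particles and reelin, and Mme (-0.50), which encodes the amyloid-degrading protease neprilysin and was the least abundant of the list (2.51 CPM per kb). Lrp1, the most abundant receptor of the list at 84.3 CPM per kb, had the highest value (0.23), similar to Apoe. Abca1, the lipid exporter that loads ApoE with cholesterol, had 0.14. None was past 1.2-fold between genotypes, where 19.1% of all genes were, with values from -0.15 (Abca1) to 0.08 (Vldlr).

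Among 22 genes of clathrin endocytosis and endosomal sorting, 16 were higher and 6 lower with AdipoRon (median 0.05, log2). Past 1.2-fold were 6 of the 22, near the 28.3% of all genes. The sorting receptors related to Sorl1 were split. Sorcs3 (-0.66) had the lowest value of the list and Sorcs1 (-0.31) was also lower, while Sort1 (0.08) and Sorcs2 (0.13) were not. Of the proteins that work beside Bin1, dynamin-1 (Dnm1) had 0.35 and was the most abundant of the list per kb (173.8 CPM per kb), and amphiphysin (Amph), the nearest relative of Bin1, had 0.16. Ap2a2, a subunit of the AP-2 adaptor that Picalm works with, had the highest value (0.39), Ap2b1, another subunit, had -0.45, and Ap2a1 (0.05) and Ap2m1 (-0.02) were near 0. Snap91, the synaptic relative of Picalm, had 0.06 beside -0.02 for Picalm. Vps29 of the retromer, which carries Sorl1 from endosomes, had -0.26, just past 1.2-fold, whereas its partners Vps35 (0.09), Vps26a (0.19) and Vps26b (0.0083) had values at or above 0. Cd2ap, another risk gene, was the least abundant per kb (5.33 CPM per kb) and had 0.02. Between genotypes, 12 were higher and 10 lower in Tau neurons (median 0.01), from -0.15 (Dnm2) to 0.24 (Sorcs3). None was past 1.2-fold, where 19.1% of all genes were.

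**Figure D4:**
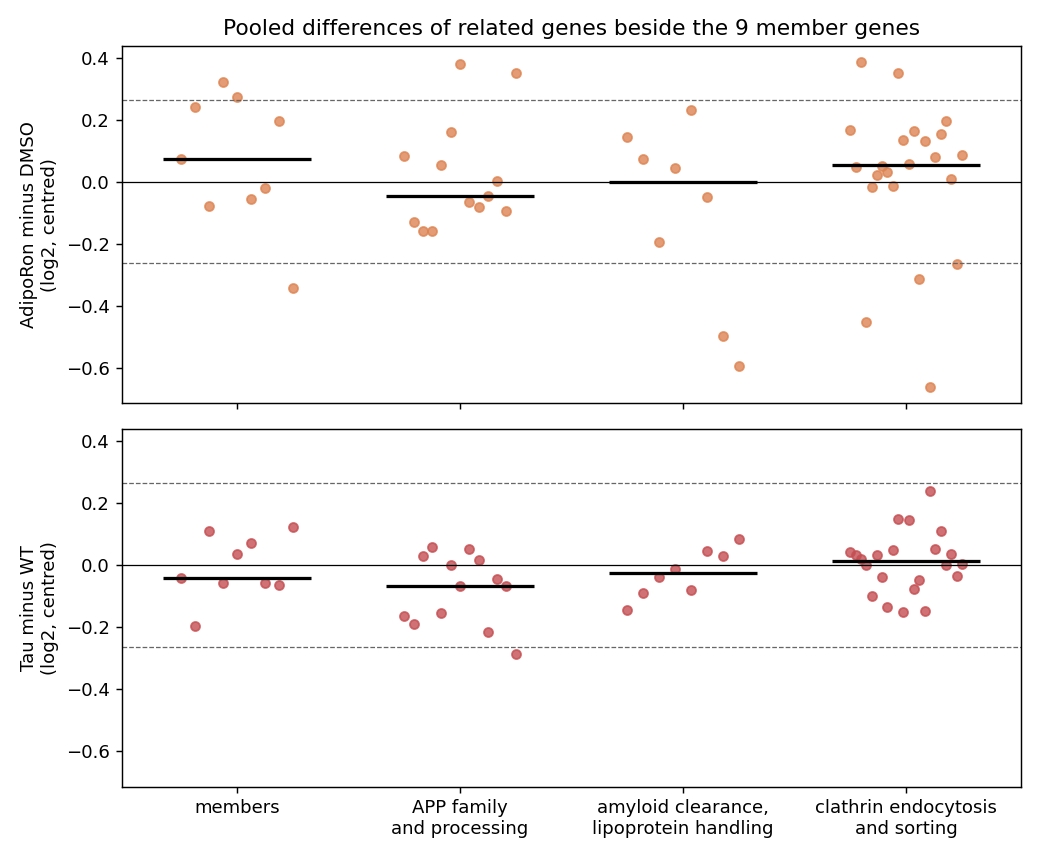
Differences of pooled means (log2, centred) for the 9 genes (members) and for 3 lists of related genes, AdipoRon minus DMSO above and Tau minus WT below. Each point is 1 gene, bars are medians and dashed lines mark 1.2-fold; the differences above run from -0.66 (Sorcs3) to 0.39 (Ap2a2), and below 1 gene, Psenen at -0.29, lies past 1.2-fold.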

How the data were processed

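RNA from 21 cultures was grouped by the genotype and treatment in the deposited labels. According to the methods, the authors trimmed reads, aligned them to mm10 with STAR, quantified them with RSEM and fitted edgeR's generalized linear model, whereas the paper's results name GRCm39 and the deposited tables Rsubread. How the authors normalised libraries and filtered genes is not given in the sources used here. Each of the 4 deposited tables holds the authors' mean expression in log2 CPM, the only column used. The other columns hold the authors' own comparisons (fold change, likelihood ratio, p-value, false discovery rate and a direction). None was used, so no test or replicate error is given here.

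Pools of cultures were set against each other as differences of log2 CPM, centred on their median over the 19399 genes in all 4 tables, with 1.2-fold as the mark. The arithmetic was checked on simulated group means (Python 3.11.15, pandas 2.3.3). Levels per kb use the GENCODE vM39 canonical transcript, found for 89.0% of genes, and positions are from RefSeq for GRCm38.p6 (mm10). The 9 genes, 3 related lists and 5 marker lists were chosen with earlier results of these data known. A further gene of one related list and of one marker list is not reported here. Named are all 9 genes, the extremes of each list by level or difference, and genes past 1.2-fold. Further named genes were picked with their values in view. Alternatives were other centrings, a filter on low genes and other folds.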

Additional observations from a re-analysis of the deposited data

How the results depend on the processing

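With AdipoRon against DMSO, the number of the 9 genes past the mark was 3 at 1.2-fold, 5 at 1.1-fold and 0 at 1.5-fold, where 28.3%, 51.8% and 7.86% of all genes were past it. For Tau against WT it was 0 at 1.2-fold, 1 at 1.1-fold (Apoe) and 0 at 1.5-fold, where 19.1%, 37.2% and 4.79% of all genes were past it. Other centrings or leaving out low genes gave 2 to 4 genes for AdipoRon, where 24.8% to 28.9% of all genes were past 1.2-fold, and 0 for the genotypes, where 11.7% to 19.3% were. Of the 9 genes, 6 were in the top 10% by level in the DMSO pool, and 5 among genes with a log2 CPM of at least 0. Aligning the DMSO and Tau pools, an alternative chosen after seeing the data, turned no sign in the comparison of AdipoRon-treated Tau with DMSO-treated WT neurons. It lowered each value a little, with Bin1 at 26.2% and Clu at 1.41% after aligning. No paired analysis was possible because values per culture were not used here, and for the same reason no culture could be left out in turn. Depth limits the scarcest genes most, and its size per culture is unknown.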

Other observations

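The fibroblast genes of the vascular list went with the genotype in the direction opposite to the microglia markers. Dcn, which encodes the matrix protein decorin, differed by 0.85 (log2, Tau minus WT, centred), Lum by 0.58 and the collagen gene Col1a1 by 0.34, each past 1.2-fold, while Col1a2 had 0.25. The endothelial gene Flt1 had -0.58. All were scarce in the DMSO pool, from 2.36 CPM for Lum to 30.4 CPM for Col1a2. With AdipoRon minus DMSO, Flt1 had the highest value of this list (0.39) and Lum the lowest (-0.30), and 4 of its 8 genes were higher and 4 lower (median 0.0040). Neurod6 and Slc17a7, both genes of excitatory neurons, were the neuronal markers past 1.2-fold between genotypes, at 0.66 and 0.33 higher in Tau neurons, and were at 7.33 and 533 CPM in the DMSO pool.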
